A study of Homo sapiens with 6 samples.

Results

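The interior of human chromosome 4 was described here in chromatin immunoprecipitation sequencing (ChIP-seq) libraries for the kinase CDK2 and the poly(ADP-ribose) polymerase PARP1. The interior was taken as the 10 kb windows of chromosome 4 that start between 10 and 185 Mb in hg19 (chr4:10000001-185010000) and hold a mean of at least 10 reads over the 6 libraries. Of 17501 windows in that range, 17127 met the minimum, which is 6.15% of the 278395 windows compared along the genome. The other 374 windows fell under it, 327 of them between 49 and 53 Mb, and 327 windows of the range held 0 reads in all 6 libraries. Position and mean depth alone chose the windows, so no change with time was used to choose them.

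All cells were T47D-MTVL, a line made from T47D human breast cancer cells by stable insertion of a mouse mammary tumour virus promoter construct. Before the experiment they were all kept in medium with charcoal-treated serum and afterwards without serum. CDK2 and PARP1 were each profiled at 0 min (no hormone), 5 min and 30 min of exposure to the synthetic progestin R5020 (10 nM) by formaldehyde fixation and ChIP-seq. Each antibody and time had 1 library, so there was no replicate check, and every difference below is one between libraries. The study addressed how CDK2 activates PARP1 in the progestin response.

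Chromosome 4 is known for long stretches with few genes, which in most cell types replicate late, carry little transcription and lie largely against the nuclear lamina. PARP1 is an abundant nuclear enzyme that binds nucleosomes and DNA breaks and attaches chains of ADP-ribose to itself, to histones and to other proteins. CDK2 is a cyclin-dependent kinase best known for driving DNA replication, and in breast cancer cells treated with progestin it phosphorylates PARP1. Genes that RefSeq (GRCh38.p14) lists on chromosome 4 include ALB, which encodes albumin, KIT, which encodes a receptor tyrosine kinase, and PCDH7, which encodes a protocadherin of the cell surface. The reads lie on hg19 and no annotation of that build was used here, so genes were not placed in single blocks. At the level of whole chromosomes the name gene-poor held: chromosome 4 carried 770 protein-coding genes, or 4.03 per Mb, the third lowest density of 23 chromosomes after chromosomes 13 (2.93) and 18 (3.46), whereas chromosome 19 carried 24.5 per Mb.

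Total reads in the compared and uncompared windows lay between 40097131, in CDK2 at 30 min, and 63448449, in PARP1 at 30 min. The libraries differed in evenness. The variance of the difference between neighbouring windows, divided by what independent reads would give, was 7.43, 52.2 and 24.0 in the CDK2 libraries of 0, 5 and 30 min. In the PARP1 libraries of the same times it was 6.11, 11.4 and 8.62. These dispersions were used to widen the 95% intervals given below, except those of single windows, which are exact and cover counting error only. The widened intervals cover no error between cultures, and no variation along the chromosome over distances longer than neighbouring windows.

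Before hormone the interior was low and even in both libraries, and CDK2 and PARP1 did not differ there by more than their interval. At 0 min the CDK2 library placed 2121486 reads in the interior, 4.70% of its reads in compared windows, and the PARP1 library 2613829 reads, or 4.69%. The ratio of the 2 shares was 1.00, with a widened 95% interval of 0.999 to 1.01. The median interior window had 2.75 RPM (reads per 1000000 reads of the library) in CDK2 and 2.76 in PARP1 at 0 min, which is 0.832 and 0.846 times the median of all compared windows in the same library. DNA copy number was not measured here, and its part in this level was not tested.

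For finer position the interior was divided into blocks of 1 Mb with at least 50 compared windows. This gave 171 of 175 blocks, 39 on the short-arm side and 132 on the long-arm side of the gap at 49 to 53 Mb, and 2811 blocks along the genome. These blocks held 17053 of the 17127 windows, and the other 74 windows entered the shares only. The level of the 171 blocks varied with a coefficient of variation of 6.01% in CDK2 and 5.50% in PARP1 at 0 min, against 38.2% and 38.6% over all blocks. The value over all blocks pools all chromosomes and lay between 38.2% and 39.4% in all 6 libraries. It can include differences in copy number, so the 2 spreads are not alike. After hormone this spread within the interior was wider in all 4 libraries, at 8.39% and 10.7% in CDK2 at 5 and 30 min and 8.83% and 7.88% in PARP1 at 5 and 30 min. The dispersion between neighbouring windows was also higher in these 4 libraries, and its part in the wider spread was not tested.

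A block was called lower or higher where the ratio of its reads, scaled by library totals, was at most 0.909 or at least 1.1. Between CDK2 and PARP1 at 0 min, 0 of 171 interior blocks were called in either direction, where 0% of all blocks were called lower and 0.178% higher. The block ratios at 0 min ran from 0.931 to 1.08. The SD of their log2 values was 0.038 in the interior and 0.043 over all blocks. The 2 antibodies thus had nearly the same 1 Mb profile along the interior before hormone. No input library was analysed here, and bound and background reads cannot be told apart in these counts.

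After R5020 the share of PARP1 reads in the interior was lower at both times, most at 5 min, whereas the share of CDK2 reads was slightly higher at 5 min and lower at 30 min. The share of CDK2 reads was 4.70%, 4.84% and 4.26% at 0, 5 and 30 min. The share of PARP1 reads was 4.69%, 4.36% and 4.47%. The CDK2 libraries thus had their lowest interior share at 30 min and the PARP1 libraries theirs at 5 min. These are shares of each library, so fewer reads in the interior and more reads elsewhere cannot be told apart.

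For PARP1 the ratio of the 5 min to the 0 min share was 0.930 (widened 95% interval 0.926 to 0.935), and that of the 30 min to the 0 min share was 0.953 (0.949 to 0.958). Both use the same 0 min library. Set directly against each other, the 30 min share was 1.02 times the 5 min share (1.02 to 1.03). For CDK2 the ratio was 1.03 (1.02 to 1.04) at 5 min and 0.906 (0.899 to 0.914) at 30 min, again over a shared 0 min library. The CDK2 share at 30 min was 0.881 times that at 5 min (0.871 to 0.891). None of these intervals contained 1.

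Between the antibodies the interior share differed after hormone. At 5 min the CDK2 share was 1.11 times the PARP1 share (1.1 to 1.12), and at 30 min it was 0.954 times the PARP1 share (0.946 to 0.962). The order of the 2 antibodies in the interior was therefore opposite at the 2 times.

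**Figure D1:**
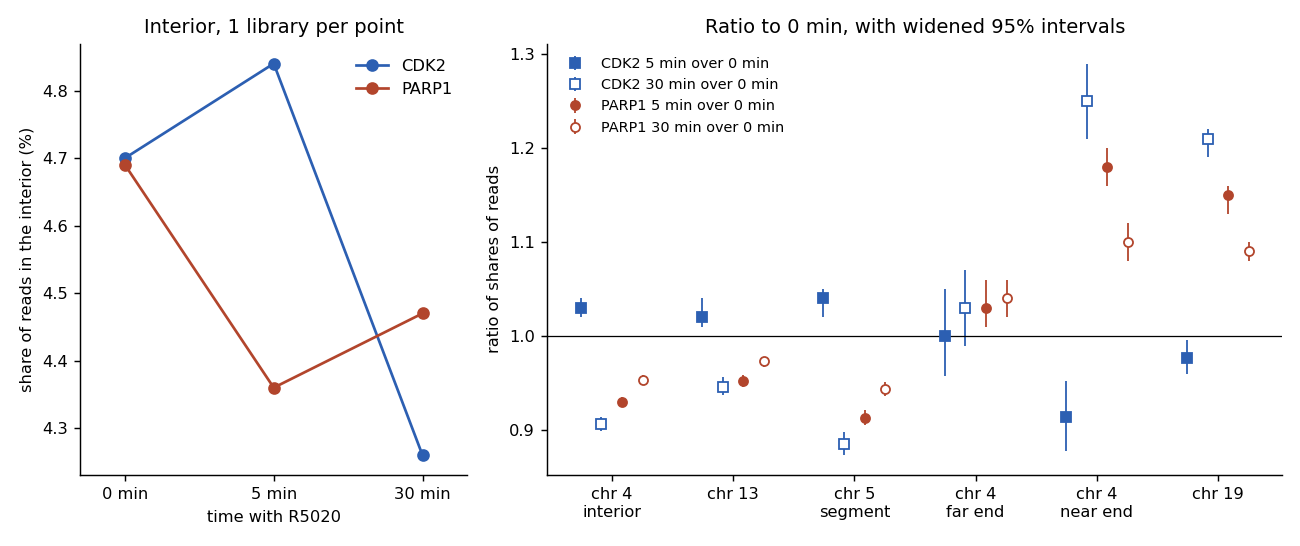
Left, the share of reads in the chromosome 4 interior in percent against time with R5020 for CDK2 and PARP1, 1 library per point; the vertical axis starts above 0. Right, ratio of the share after R5020 to the share at 0 min in 6 regions, with bars for the widened 95% interval; in the interior the CDK2 ratio at 5 min lies above 1 and the other 3 ratios lie below 1.

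Of the other gene-poor regions, chromosome 13 and a segment of chromosome 5 had values on the same side of 1 as the interior, and chromosome 18 did so in 3 of 4 comparisons. In the interior the ratios for CDK2 at 5 and 30 min and PARP1 at 5 and 30 min were 1.03, 0.906, 0.930 and 0.953. Chromosome 13 had 1.02, 0.946, 0.952 and 0.973, and the segment of chromosome 5 from 80 to 120 Mb had 1.04, 0.885, 0.913 and 0.943. The interval of the interior did not overlap that of chromosome 13 for CDK2 at 30 min or for PARP1 at either time, and the interior was the lower of the 2 each time. The chromosome 5 segment was lower still at those 3 points, and its interval overlapped the interior's for PARP1 at 30 min but not at the other 2 points. Variation among 1 Mb blocks is outside these intervals. For PARP1 at 5 min block ratios ran from 0.779 to 1.11 in the interior. They ran from 0.807 to 1.21 on chromosome 13 and from 0.812 to 0.996 in the segment. Chromosome 18, which has fewer genes per Mb than chromosome 4, had 0.981, 0.982, 0.991 and 0.993, nearer 1 than the interior each time and on the other side of 1 for CDK2 at 5 min.

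The short-arm end of the same chromosome, the 969 compared windows that start under 10 Mb, had 0.914, 1.25, 1.18 and 1.1. It was thus on the other side of 1 from the interior in all 4 comparisons, as was chromosome 19 with 0.977, 1.21, 1.15 and 1.09. The long-arm end, 598 windows beyond 185 Mb, lay near or just above 1 with 1.00, 1.03, 1.03 and 1.04. The regions are single stretches of the same libraries and not replicates.

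Among the 23 whole chromosomes, chromosome 4 had the lowest share ratio for CDK2 at 30 min (0.929) and for PARP1 at 5 min (0.947) and 30 min (0.964). For CDK2 at 5 min it had 1.02, the second highest. Over the 23 chromosomes the Spearman correlation of the ratio with protein-coding genes per Mb was -0.57 for CDK2 at 5 min, 0.76 for CDK2 at 30 min, 0.77 for PARP1 at 5 min and 0.76 for PARP1 at 30 min. These are descriptions over chromosomes that share libraries and depth, and base composition, which varies with gene density, was not measured here. How much of the interior's ratios goes with gene density was not tested.

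Within the interior the lower PARP1 signal at 5 min was not uniform. Of 171 blocks, 73 (42.7%) were called lower and 1 higher for PARP1 at 5 min, where 20.1% of all blocks were called lower and 18.9% higher. The block ratios ran from 0.779 to 1.11 with a median of 0.926, against a median of 0.997 over all blocks, and 139 blocks lay below 1. At 30 min 39 blocks (22.8%) were called lower and 1 higher, where 11.6% and 10.4% of all blocks were called lower and higher. The ratios at 30 min ran from 0.821 to 1.1 with a median of 0.953, and 136 blocks lay below 1. Called lower blocks were thus about 2 times as common in the interior as over the genome at both times, and called higher blocks were nearly missing.

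Directly between the 2 hormone libraries, 0 blocks were called lower and 3 higher for PARP1 at 30 min over 5 min, where 2.10% and 0.676% of all blocks were called. The median of these ratios was 1.03 and their range 0.917 to 1.12.

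For CDK2 the direction along the interior depended on the time. At 5 min 6 blocks were called lower and 27 (15.8%) higher, where 8.82% of all blocks were called lower and 5.94% higher. The calls use the ratio alone. At 5 min the widened interval lay wholly below 1 in only 1 interior block and wholly above 1 in 15. The block ratios at 5 min ran from 0.873 to 1.25 with a median of 1.03, and 57 blocks lay below 1. At 30 min 92 blocks (53.8%) were called lower and 4 higher, where 28.5% of all blocks were called lower and 24.2% higher. The widened interval at 30 min lay wholly below 1 in 83 interior blocks and wholly above 1 in 2. The ratios at 30 min ran from 0.725 to 1.12 with a median of 0.905, and 146 blocks lay below 1. These counts depended on the scaling. For CDK2 at 5 min 0 blocks were lower and 52 to 55 higher with TMM or median-of-ratios factors, and 0 and 171 when the windows of lowest mean set the scale. With that last scaling the blocks lower were 36 for CDK2 at 30 min, 47 for PARP1 at 5 min and 15 for PARP1 at 30 min. The lowest CDK2 ratio of all 2811 blocks at 30 min, 0.725, was one of the interior.

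For CDK2 at 5 min, blocks and windows lay on different sides of 1. The share of the interior and the median block lay above 1, while the median window ratio was 0.980 and 51.4% of interior windows lay below 1. Over all compared windows the median window ratio was 0.955. The other 3 comparisons had no such split: the median window ratio was 0.867 for CDK2 at 30 min, 0.921 for PARP1 at 5 min and 0.947 for PARP1 at 30 min, each below 1 like the share.

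Between CDK2 at 30 and at 5 min, 100 of 171 blocks (58.5%) were called lower and 6 higher, where 30.7% and 30.0% of all blocks were called. Between CDK2 and PARP1 at 5 min, 90 blocks (52.6%) were called higher and 5 lower, where 25.1% and 26.0% of all blocks were called. Between CDK2 and PARP1 at 30 min, 1 block was called higher and 38 (22.2%) lower, where 13.6% and 11.5% of all blocks were called.

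**Figure D2:**
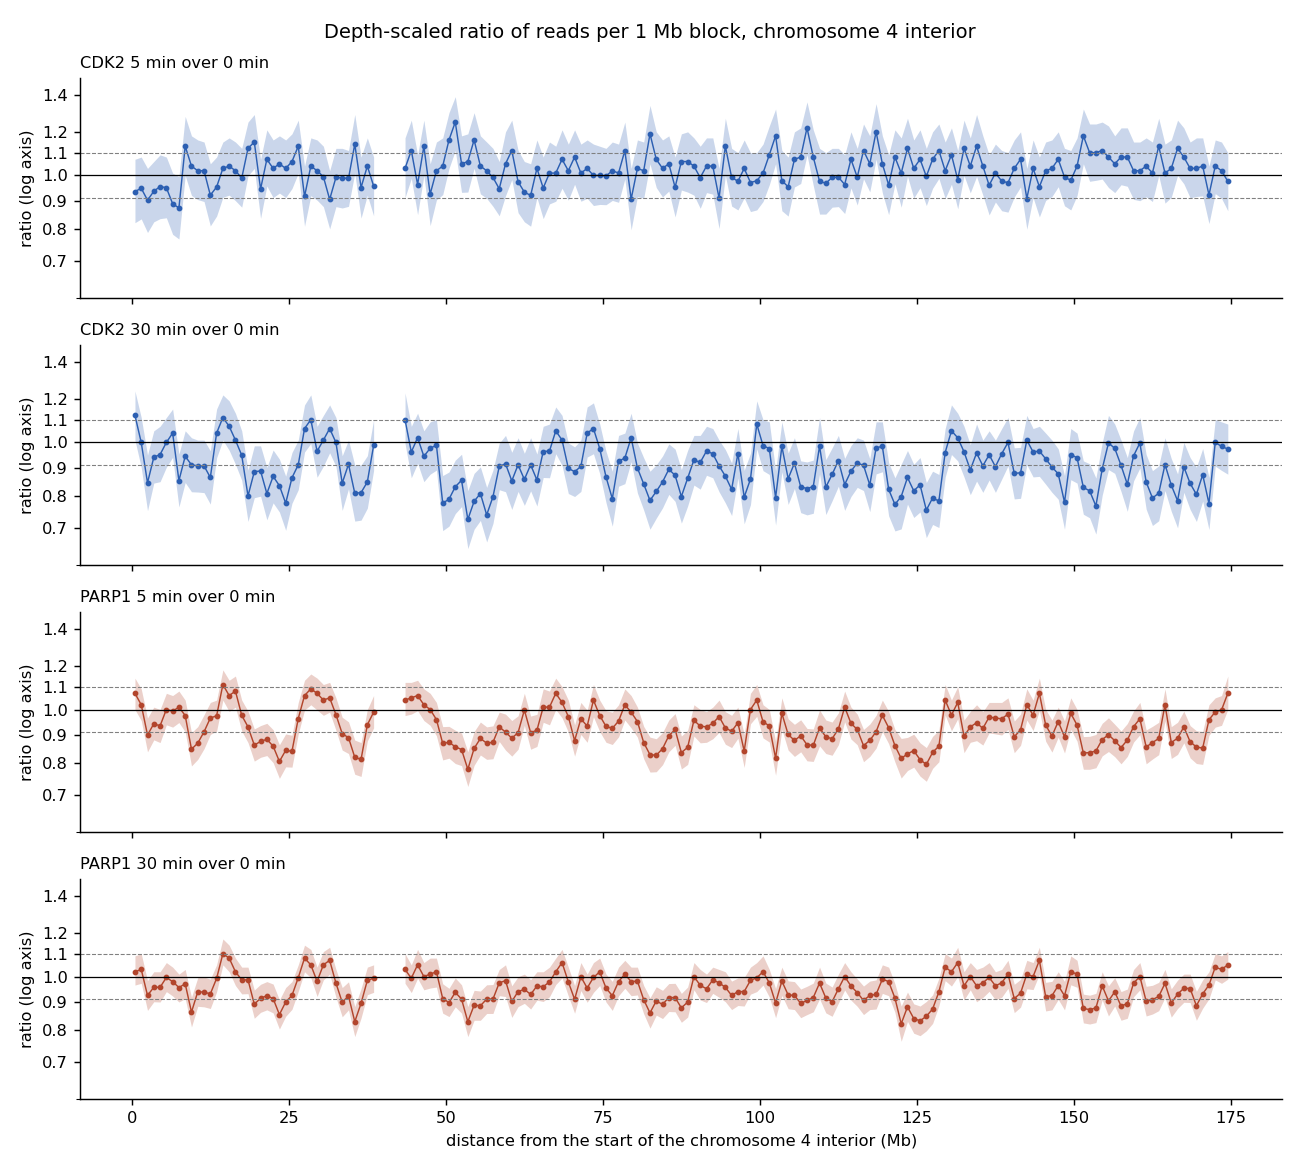
Depth-scaled ratio of reads per 1 Mb block (points, log axis) against distance from the start of the chromosome 4 interior in Mb, for CDK2 and PARP1 at 5 and 30 min over 0 min; bands are widened 95% intervals, dashed lines the limits of 0.909 and 1.1, and the break is the gap at 49 to 53 Mb. Runs of neighbouring blocks below 0.909 recur at similar places for CDK2 at 30 min and PARP1 at both times, and CDK2 at 5 min stays closer to 1 with wider bands.

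The block with the lowest PARP1 ratio at 5 min was also the lowest for CDK2 at 30 min. It lies at 63 to 64 Mb (chr4:63000001-64000000), held 100 compared windows, and had 11685, 15802 and 7528 CDK2 reads and 14777, 12078 and 13926 PARP1 reads at 0, 5 and 30 min. In RPM per window this was 2.59, 2.73 and 1.88 for CDK2 and 2.65, 2.06 and 2.19 for PARP1. The CDK2 library at 30 min was the lowest of the 6 and the CDK2 library at 5 min the highest. The ratio was 1.06 (0.933 to 1.19) for CDK2 at 5 min, 0.725 (0.642 to 0.818) for CDK2 at 30 min, 0.779 (0.725 to 0.838) for PARP1 at 5 min and 0.828 (0.778 to 0.882) for PARP1 at 30 min. The lower values were spread over the block: 74 of its 100 windows lay below 1 for CDK2 at 30 min, 79 for PARP1 at 5 min and 82 for PARP1 at 30 min, while 53 did for CDK2 at 5 min.

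The 2 blocks with the next lowest PARP1 ratios at 5 min had the same low points. The block at 136 to 137 Mb had 2.80, 2.78 and 2.11 RPM per window in CDK2 and 2.75, 2.19 and 2.33 in PARP1 at 0, 5 and 30 min. Its CDK2 ratios at 5 and 30 min were 0.996 and 0.754, and its PARP1 ratios 0.795 and 0.847. The block at 33 to 34 Mb had 2.78, 2.91 and 2.32 in CDK2 and 2.78, 2.24 and 2.37 in PARP1, with ratios of 1.05, 0.835, 0.805 and 0.853 in the same order. In both blocks PARP1 was lowest at 5 min and CDK2 lowest at 30 min.

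For CDK2 at 30 min the second lowest ratio was 0.739 (0.660 to 0.829) at 66 to 67 Mb, from 13045, 17097 and 8573 CDK2 reads at 0, 5 and 30 min. Its PARP1 ratios were 0.869 at 5 min and 0.910 at 30 min. For PARP1 at 30 min the lowest ratios were 0.821 (0.763 to 0.884) at 132 to 133 Mb and 0.828 (0.778 to 0.882) at both 45 to 46 Mb and 63 to 64 Mb. The block at 132 to 133 Mb also had the lowest level of the interior, 2.04, 2.07 and 1.63 RPM per window in CDK2 and 2.07, 1.68 and 1.70 in PARP1, over 95 compared windows.

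At the other end, the block at 24 to 25 Mb had the highest PARP1 ratios of the interior at both times. It held 13181, 17340 and 13001 CDK2 reads and 16460, 19099 and 20675 PARP1 reads at 0, 5 and 30 min. In RPM per window this was 2.92, 3.0 and 3.24 for CDK2 and 2.95, 3.27 and 3.26 for PARP1, so all 4 hormone libraries were above their 0 min library. The ratios were 1.03 (0.913 to 1.15) and 1.11 (1.01 to 1.22) for CDK2 at 5 and 30 min, and 1.11 (1.04 to 1.18) and 1.1 (1.05 to 1.17) for PARP1. It was the 1 interior block called higher for PARP1 at each time.

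The next highest PARP1 ratios at 5 min were 1.09 at 38 to 39 Mb and 1.08 at 26 to 27 Mb. At 30 min they were 1.08 at both 37 to 38 Mb and 25 to 26 Mb. For CDK2 at 30 min the highest were 1.12 (1.01 to 1.24) at 10 to 11 Mb, 1.11 at 24 to 25 Mb and 1.1 (0.996 to 1.23) at 53 to 54 Mb, next to the gap. The highest level of the interior was at 68 to 69 Mb, with 3.39, 3.20 and 3.06 RPM per window in CDK2 and 3.29, 3.06 and 3.21 in PARP1. That block had ratios below 1 at all 4 points, so a high level did not go with a high ratio there.

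The blocks that stood out for CDK2 at 5 min were others. The highest ratio, 1.25 (1.11 to 1.39), was at 61 to 62 Mb, with 12386, 19758 and 9147 CDK2 reads at 0, 5 and 30 min. It was followed by 1.22 (1.09 to 1.36) at 117 to 118 Mb and 1.2 (1.07 to 1.35) at 128 to 129 Mb. These 3 blocks had PARP1 ratios of 0.856, 0.863 and 0.911 at 5 min, below 1 in each. The 3 lowest CDK2 ratios at 5 min lay between 12 and 18 Mb. They were 0.873 (0.767 to 0.995) for 17 to 18 Mb, 0.889 (0.782 to 1.01) for 16 to 17 Mb and 0.902 (0.788 to 1.03) for 12 to 13 Mb. Nearly equal ratios lay far from these, such as 0.905 at 41 to 42 Mb and 0.906 at 89 to 90 Mb. The evenness of the CDK2 library at 5 min, given above, was the poorest of the 6, and its part in these values was not tested.

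At the limits of the range, the block at 10 to 11 Mb just inside held 11530, 13810 and 11449 CDK2 reads and 14697, 16463 and 17124 PARP1 reads at 0, 5 and 30 min. The block at 9 to 10 Mb just outside held 3478, 4269 and 3437 CDK2 reads and 4057, 4695 and 4920 PARP1 reads in its compared windows. Its coverage was low in all 6 libraries, with a mean of 54.5 reads per compared window against 143 at 10 to 11 Mb. These sums are therefore no measure of a change with time at the limit. At the far limit the block just inside, from 184 Mb, held 12441, 15554 and 10757 CDK2 reads and 14443, 16241 and 17247 PARP1 reads. The block just outside, from 185 Mb, held 11547, 13544 and 11936 CDK2 reads and 14379, 16737 and 17743 PARP1 reads. The windows nearest to the minimum had a mean of 10.0 reads just inside and 9.83 and 9.50 just outside.

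Blocks that were lower for PARP1 at 5 min were mostly also lower for CDK2 at 30 min, although these 2 comparisons have no library in common. Of the 73 blocks lower for PARP1 at 5 min, 64 were lower for CDK2 at 30 min, which is 87.7% of the PARP1 blocks and 69.6% of the 92 CDK2 blocks. Of the 98 other blocks, 28 (28.6%) were lower for CDK2 at 30 min. Of the 39 blocks lower for PARP1 at 30 min, 36 (92.3%) were lower for CDK2 at 30 min. For comparison, 53.8% of the interior blocks and 28.5% of all blocks were lower for CDK2 at 30 min. These overlaps were counted in the interior only, so they do not show whether the interior differs from the genome. For CDK2 at 5 min the blocks sat on the other side: 60 of the 73 (82.2%) lay above 1, against 54 of the other 98 (55.1%).

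Over the 171 interior blocks the Pearson correlation of the CDK2 ratio at 30 min with the PARP1 ratio was 0.78 for PARP1 at 5 min and 0.77 for PARP1 at 30 min, with the same Spearman values. The CDK2 ratio at 5 min correlated with the PARP1 ratio at 5 min at -0.43 (Spearman -0.46). Over all 2811 blocks the same pairs gave 0.91, 0.88 and -0.38. Neighbouring blocks are not independent, all blocks share the libraries, and base composition is common to both axes, so these are descriptions only. The relation was thus present within the interior as well as over the whole genome.

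**Figure D3:**
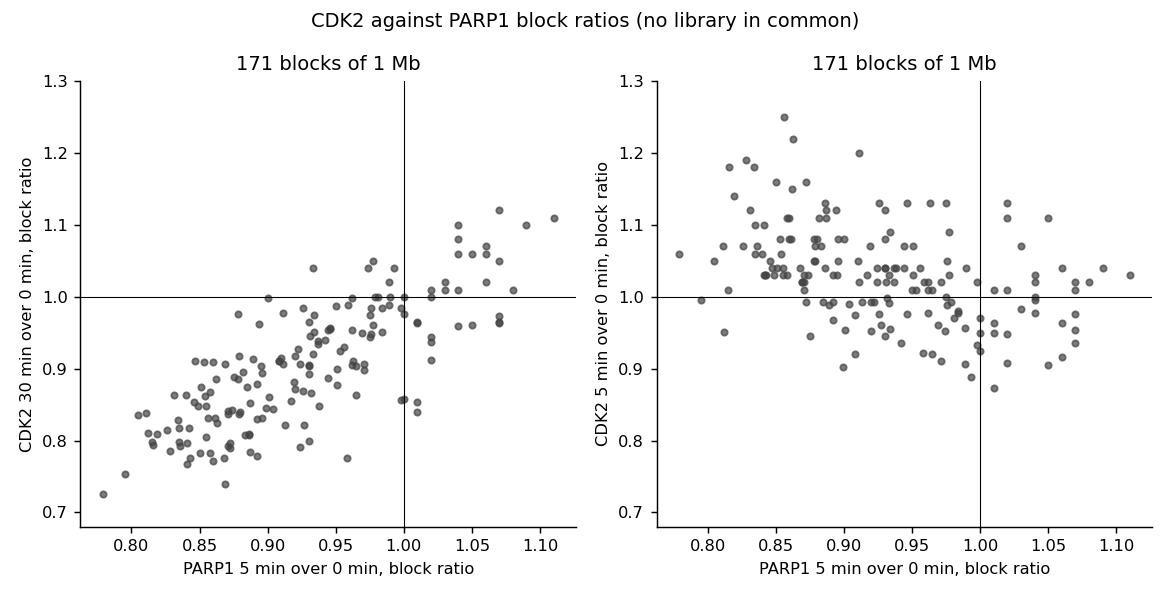
Block ratios of CDK2 at 30 min (left) and CDK2 at 5 min (right) over 0 min against the block ratio of PARP1 at 5 min over 0 min, 1 point per 1 Mb block of the chromosome 4 interior; lines mark a ratio of 1. The points climb from lower left to upper right for CDK2 at 30 min (Pearson 0.78) and slope weakly the other way for CDK2 at 5 min (-0.43).

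Ratios of neighbouring blocks resembled each other over a few Mb. For PARP1 at 5 min the correlation between blocks 1 Mb apart was 0.62 (169 pairs), 2 Mb apart 0.35 and 5 Mb apart -0.03. For PARP1 at 30 min it was 0.56, 0.26 and -0.10, and for CDK2 at 30 min 0.47, 0.19 and 0.08. CDK2 at 5 min had 0.15 at 1 Mb, and the ratio of CDK2 to PARP1 at 0 min had 0.08. The pattern thus came in segments of a few Mb for 3 of the 4 comparisons with 0 min, with little of it for CDK2 at 5 min. The PARP1 comparisons among these share their 0 min library. The CDK2 library at 5 min was the least even and gave wide block intervals. The part of this in its low correlation was not tested.

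Segments were therefore listed from the PARP1 ratios at 5 min, as runs of at least 3 neighbouring blocks that were all at or under 0.909 or all at or above 1. The runs were chosen from those values, so the PARP1 levels at both 0 and 5 min describe the choice. The PARP1 ratios at 30 min share its 0 min library. There were 9 lower stretches with 52 blocks in all, at 29 to 36, 43 to 47, 59 to 68, 91 to 96, 114 to 119, 131 to 139, 161 to 169, 171 to 174 and 178 to 181 Mb. There were 4 stretches at or above 1 with 17 blocks, at 24 to 27, 37 to 42, 53 to 58 and 75 to 79 Mb. The longest lower stretch had 9 blocks and the longest stretch at or above 1 had 5. The 2 limits are unlike, and the median PARP1 block ratio at 5 min was 0.926. The numbers and lengths of the 2 kinds therefore follow from the choice and are not compared.

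The CDK2 libraries, which the choice did not use, separated the 2 kinds of stretch at 30 min. The block ratios of CDK2 at 30 min and PARP1 at 5 min correlated at 0.78 (Pearson), so this largely restates that relation. The 9 lower stretches had 2.64 to 2.84 RPM per window in CDK2 at 0 min, 2.74 to 3.06 at 5 min and 2.16 to 2.41 at 30 min. The 4 stretches at or above 1 had 2.63 to 2.74, 2.66 to 2.82 and 2.63 to 2.93. The 2 kinds overlapped at 0 and 5 min and did not overlap at 30 min. The CDK2 ratio at 30 min was 0.789 to 0.877 in the lower stretches and 1.00 to 1.07 in the others, and at 5 min it was 1.02 to 1.1 and 0.973 to 1.03. PARP1 in the lower stretches had 2.72 to 2.85, 2.26 to 2.50 and 2.37 to 2.60 RPM per window at 0, 5 and 30 min, against 2.60 to 2.73, 2.69 to 2.95 and 2.65 to 2.92 in the others.

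The stretch from 59 to 68 Mb had 2.77, 3.0 and 2.18 RPM per window in CDK2 and 2.74, 2.34 and 2.46 in PARP1 at 0, 5 and 30 min. All 9 of its blocks lay below 1 for CDK2 at 30 min, with a ratio of 0.789 (0.760 to 0.820) over the stretch, the lowest of the 9. The stretch from 131 to 139 Mb had 2.69, 2.86 and 2.16 in CDK2 and 2.72, 2.26 and 2.37 in PARP1, and a CDK2 ratio at 30 min of 0.802 (0.770 to 0.835). The stretch from 24 to 27 Mb had 2.74, 2.82 and 2.93 in CDK2 and 2.73, 2.95 and 2.92 in PARP1, and a CDK2 ratio at 30 min of 1.07 (1.01 to 1.13). At 0 min these 3 stretches lay within 2.69 to 2.77 in CDK2, and at 30 min the last of them stood apart from the other two.

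**Figure D4:**
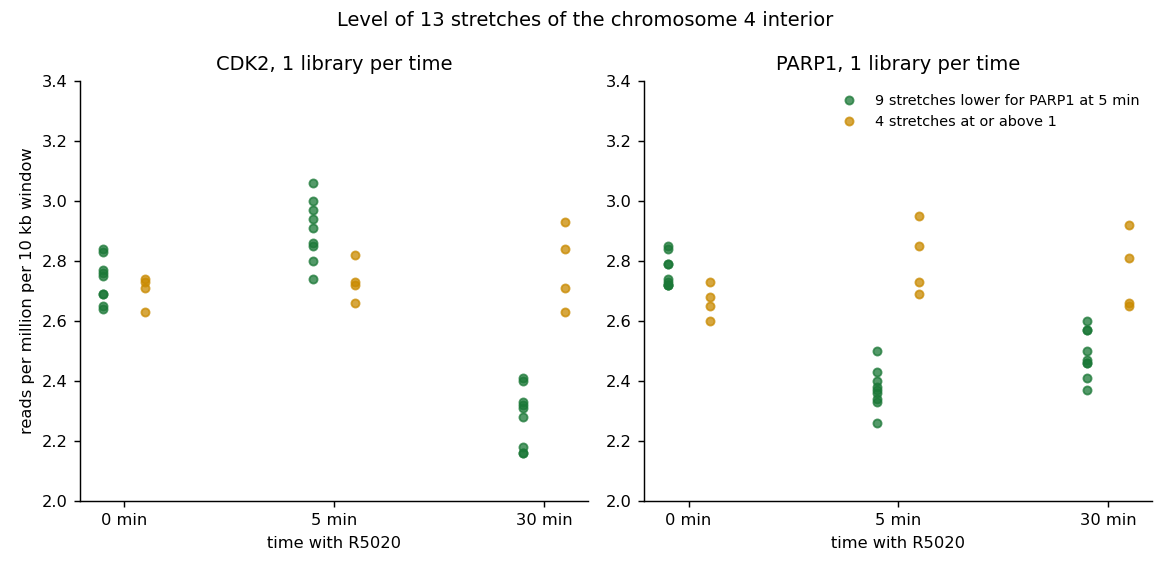
RPM per 10 kb window in 13 stretches of the chromosome 4 interior at 0, 5 and 30 min of R5020 for CDK2 (left) and PARP1 (right), 1 point per stretch and library; the vertical axis starts above 0. The 9 stretches lower for PARP1 at 5 min lie at 2.16 to 2.41 for CDK2 at 30 min, under the 4 stretches at or above 1, which lie at 2.63 to 2.93.

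Changes from one segment to the next were compared over 3 blocks on each side. At each of 161 positions the PARP1 ratio at 5 min over the 3 blocks above was set against the 3 blocks below. The largest climbs, chosen from those values, were at 36 Mb (log2 difference 0.32), 139 Mb (0.29) and 22 Mb (0.21), and the largest falls at 43 Mb (-0.24), 27 Mb (-0.23) and 91 Mb (-0.23). CDK2 at 30 min, not used to choose them, moved the same way at all 6 positions, by 0.31, 0.38 and 0.14 at the climbs and by -0.26, -0.28 and -0.23 at the falls. This, too, largely restates the correlation of the block ratios given above. CDK2 at 5 min had the opposite sign at all 6, with small values of -0.03, -0.04 and -0.09 at the climbs and of 0.11, 0.07 and 0.11 at the falls.

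At 139 Mb the CDK2 ratio at 30 min was 1.01 over the 3 blocks above and 0.777 over the 3 blocks below. In bins of 100 kb over 2 Mb above the position, 9 of 20 bins lay below 1 for CDK2 at 30 min and 10 of 20 for PARP1 at 5 min. In the 2 Mb below it, 19 of 20 bins lay below 1 for CDK2 at 30 min and 20 of 20 for PARP1 at 5 min. At 36 Mb, 12 and 8 of 20 bins lay below 1 above the position and 18 and 20 of 20 below it. The change at 36 Mb was not confined to the position itself: the block from 36 to 37 Mb had intermediate ratios of 0.911 for CDK2 at 30 min and 0.963 for PARP1 at 5 min. The median bin below 36 Mb was 0.815 for CDK2 at 30 min and 0.834 for PARP1 at 5 min.

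**Figure D5:**
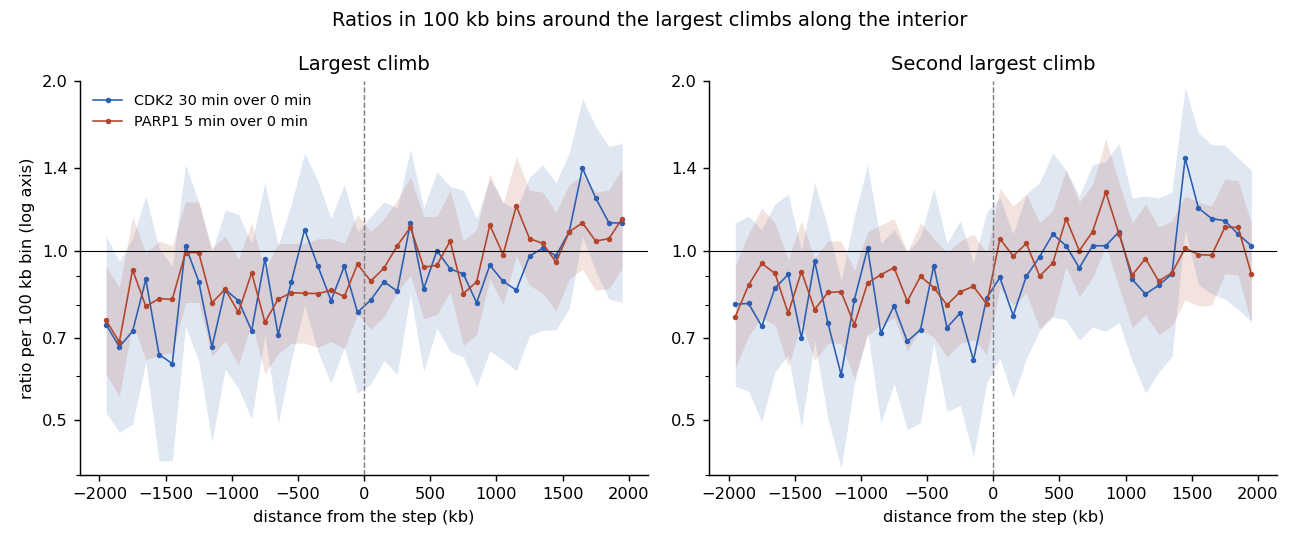
Ratio to 0 min in bins of 100 kb (log axis) against distance in kb from the largest climb of the PARP1 ratio at 5 min (left, at 36 Mb) and the next (right, at 139 Mb), for CDK2 at 30 min and PARP1 at 5 min; bands are widened 95% intervals. Nearly all bins below each position lie under 1, and those above it lie on both sides of 1.

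Pooled over its windows, the long-arm side of the interior had the larger departures. On the short-arm side the ratio was 1.00 (0.984 to 1.02) and 0.942 (0.927 to 0.958) for CDK2 at 5 and 30 min, and 0.956 (0.946 to 0.967) and 0.969 (0.960 to 0.978) for PARP1. On the long-arm side it was 1.04 (1.03 to 1.05) and 0.896 (0.887 to 0.904) for CDK2, and 0.923 (0.917 to 0.928) and 0.949 (0.944 to 0.953) for PARP1. The intervals of the 2 sides did not overlap in any of the 4 comparisons.

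Among single windows more were called lower than higher in all 4 comparisons with 0 min, in the interior and over all windows alike. The share called higher in the interior exceeded that of all windows only for CDK2 at 5 min. A window was called where reads scaled by depth differed at least 2-fold in either direction and an exact binomial test (two-sided, Benjamini-Hochberg over all 278395 windows) fell under 0.05. This describes 2 libraries and not the conditions. For PARP1 at 5 min 517 interior windows (3.02%) were called lower and 81 (0.473%) higher, where 1.73% and 0.893% of all windows were called. For PARP1 at 30 min 154 windows (0.899%) were called lower and 52 (0.304%) higher, where 0.587% and 0.406% were called. For CDK2 at 5 min 2956 windows (17.3%) were called lower and 1387 (8.10%) higher, where 16.2% and 6.21% were called, and for CDK2 at 30 min 2969 (17.3%) and 636 (3.71%), where 11.5% and 5.46% were called.

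When counts were divided by the dispersion of each comparison, 0 interior windows were called in any of the 9 comparisons. Scaled instead on the windows of lowest mean, CDK2 at 5 min had 1921 windows lower and 3434 higher, so the direction of that split depended on the scaling.

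Single windows reached larger ratios than any block, some of them on few reads. Their exact intervals were not widened by the dispersion and cover counting error only. None of these windows was called once counts were divided by the dispersion. The highest PARP1 ratio at 5 min by the lower bound of its interval was at 119400001 to 119410000, where PARP1 had 1, 33 and 20 reads and CDK2 had 21, 41 and 0 at 0, 5 and 30 min. That is a ratio of 31.5 with an exact 95% interval of 5.27 to 1280. The window 44190001 to 44200000 had more reads behind it, with 92, 269 and 160 PARP1 reads and a ratio of 2.79 (2.19 to 3.57), and 101, 118 and 135 CDK2 reads. Among lower windows, 84320001 to 84330000 had 105, 10 and 43 PARP1 reads, a ratio of 0.0908 (0.0423 to 0.174) at 5 min, and 78, 55 and 46 CDK2 reads.

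For PARP1 at 30 min the window 119760001 to 119770000 was higher with 92, 210 and 244 PARP1 reads (2.33, 1.83 to 3.0) and 141, 141 and 78 CDK2 reads. The window 20280001 to 20290000 was lower with 237, 81 and 94 PARP1 reads (0.349, 0.272 to 0.445) and 133, 151 and 99 CDK2 reads. For CDK2 at 5 min the window 69680001 to 69690000 had 25, 237 and 86 CDK2 reads at 0, 5 and 30 min (7.40, 4.89 to 11.7), and 75, 42 and 139 PARP1 reads. For CDK2 at 30 min the window 144790001 to 144800000 had 4, 4 and 37 CDK2 reads (10.4, 3.74 to 40.2), and 35, 17 and 37 PARP1 reads. In none of these 4 windows did the other antibody differ by a like factor in the same direction at the same time, but in other named windows both antibodies moved together. One of these, at 49300001 to 49310000, lies within the gap at 49 to 53 Mb that the blocks leave out, and had few reads. CDK2 had 5, 29 and 40 reads there, a ratio of 9.0 (3.55 to 29.2) at 30 min. PARP1 had 4, 28 and 18 reads, a ratio of 6.67 (2.33 to 26.2) at 5 min. Lower counts of both antibodies at 30 min were found at 139490001 to 139500000, with 116, 80 and 52 CDK2 reads and 218, 132 and 86 PARP1 reads, and at 47240001 to 47250000, with 79, 31 and 40 CDK2 reads and 105, 77 and 38 PARP1 reads.

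Windows with 0 reads were nearly all in CDK2 after hormone. In the CDK2 library of 5 min, 249 of 17127 interior windows (1.45%) held 0 reads, spread over 134 blocks, where 1.43% of all compared windows did. In CDK2 at 30 min 25 interior windows (0.146%) did, against 0.211% of all compared windows, and in CDK2 at 0 min and the 3 PARP1 libraries 0 did. At 27920001 to 27930000, for example, CDK2 had 196, 0 and 158 reads and PARP1 had 183, 146 and 206 at 0, 5 and 30 min. The exact 95% upper limit of the depth-scaled CDK2 ratio at 5 min was 0.0148 there. At 92170001 to 92180000 CDK2 had 186, 116 and 0 reads, with an upper limit of 0.0225 for the ratio at 30 min, and PARP1 had 141, 164 and 169. Only 1 interior window had 0 reads in CDK2 at both 5 and 30 min.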

How the data were processed

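The authors deposited whole-number read counts in consecutive 10 kb windows, 1 column per library, without normalization, and all values here derive from those counts. Per the submitters' processing notes, Bowtie 1.0.0 was the aligner and hg19 (GRCh37) the build. How duplicates and multiple matches were treated is not stated in the sources used here.

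Windows with a mean of at least 10 counts were compared, and libraries were scaled by their totals. Dispersions are robust variances, per library between neighbouring windows and per comparison around the ratio of 20 windows on each side. Intervals are 95%. No fit across replicates was possible. The members, blocks, limits and alternatives were chosen with earlier results of these data known, and stretches and steps after the block ratios were seen. Named blocks are the 3 lowest and 3 highest per comparison with 0 min and by level, and named windows were picked from the called windows whose interval bound lay farthest from 1, at most 1 per 100 kb. Gene counts come from RefSeq (GRCh38.p14) by chromosome. Python 3.11.15 (numpy 2.4.6, scipy 1.17.1, pandas 2.3.3, matplotlib 3.10.9) and R 4.3.3 were used, with edgeR 4.0.16 and DESeq2 1.42.0 for scaling factors only.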

Additional observations from a re-analysis of the deposited data

Results flagged for a closer look

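At 5 min of R5020 the interior share of reads lay on opposite sides of its 0 min value for the 2 antibodies, with a ratio of 1.03 for CDK2 and 0.930 for PARP1. The difference between the antibodies was not tested, since each rests on 1 library per time. The median window ratio for CDK2 at 5 min was 0.980, on the same side of 1 as that of PARP1, 0.921. Over all compared windows these medians were 0.955 for CDK2 and 0.991 for PARP1. Relative to all windows the interior median was thus higher for CDK2 and lower for PARP1, as with the shares.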

How the results depend on the processing

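No paired analysis was possible because each antibody and time had 1 library, and no library could be left out. Share ratios kept their side of 1 under other count minimums, without the 1% of windows of highest mean, without windows at 0 reads and on autosomes alone. They moved past their counting interval in 5 of 45 cases: CDK2 at 5 min to 1.03, CDK2 at 30 over 5 min to 0.877, and CDK2 over PARP1 at 5 min to 1.11, all without windows at 0 reads, and the last 2 to 0.879 and 1.11 without the top 1%.

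Counts of blocks depended on the limit and the scaling, and 25 of 48 stayed within 1.5 times the value in the report. With a limit of 1.2, blocks lower and higher were 0 and 3 for CDK2 at 5 min, 40 and 0 for CDK2 at 30 min, 11 and 0 for PARP1 at 5 min, and 4 and 0 for PARP1 at 30 min. Scaled on the windows of lowest mean they were 0 and 171, 36 and 22, 47 and 9, and 15 and 3 in the same order. CDK2 at 5 min had 0 lower and 52 higher with TMM factors, and 0 and 55 with median-of-ratios factors, which also gave 9 higher for CDK2 at 30 min. Thinned to the smallest total, PARP1 had 0 blocks higher at either time. The low-mean scaling moved all CDK2 log2 ratios by 0.377 at 5 min and 0.133 at 30 min. Over the 4 scalings the median interior block ratio lay between 1.03 and 1.33 for CDK2 at 5 min, 0.905 and 0.992 for CDK2 at 30 min, 0.926 and 0.959 for PARP1 at 5 min, and 0.953 and 0.980 for PARP1 at 30 min. A scaling shifts all blocks of a comparison alike, so it cannot change the interior relative to other blocks.

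Divided by the dispersion, 0 windows were called lower or higher in the interior in the 4 comparisons with 0 min. Scaled on the windows of lowest mean, CDK2 at 5 min had 1921 windows lower and 3434 higher, and CDK2 at 30 min had 959 higher. Counting error was small beside the dispersion, which sets the precision of single windows.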
